A study of Bos taurus with 96 samples.

Results

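CFHR4 (ENSBTAG00000040409) and CFD (ENSBTAG00000046245), both genes of the complement system, were picked by identifier as genes that the study named as up-regulated in liver of Fert+ cows at late pregnancy. They are 2 of the 24616 gene rows counted in each library. The libraries came from 16 Holstein cows of one herd, 8 chosen for high (Fert+) and 8 for low (Fert-) genetic merit in fertility traits. Both groups held cows of different parity. Liver and semitendinosus muscle were biopsied from every cow at late pregnancy (LP), early lactation (EL) and mid lactation (ML), which gave 96 bulk mRNA libraries, 48 per tissue, 16 per tissue and time-point and 8 per group. The groups differ by breeding merit and not by a known single allele, and the same cows give all 3 time-points.

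Complement is a cascade of plasma proteins, most of them secreted by hepatocytes, that marks particles for uptake and lyses cells. In the alternative pathway factor D, the protein of CFD, is the serine protease that cleaves factor B bound to C3b and so forms the C3 convertase. The protein of CFHR4 belongs to a family of complement proteins that are built from a repeated domain and circulate in plasma, and CFD is also known as adipsin because adipocytes secrete it.

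Libraries held 14966847 to 26358063 counts in liver and 15279337 to 22018740 in muscle. Levels are given in CPM, counts scaled to the total of the library with TMM factors of its tissue and not to gene length, so that levels are compared between cows and not between genes. The 6 hepatocyte markers that could be matched summed to 28045 to 204033 CPM in liver, and the skeletal muscle markers summed to at most 0.232 CPM there, whereas muscle libraries held 16866 to 233838 CPM of skeletal muscle markers. In 13 libraries (8 of liver and 5 of muscle) a set of 19 genes was counted that was near 0 in the other 83, and these are called the 19-gene libraries, since no label names a batch for them. Liver at LP held 19-gene libraries of Fert+ cows only (2), and those of muscle were all from Fert- cows (5), so that values without them are given beside the genotype results. In these bulk biopsies fewer cells of a type and less RNA per cell cannot be told apart.

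In liver CFHR4 had a mean CPM, which also depends on gene length, above that of all but 128 of the 13545 genes that passed the filter on low counts. It was read by 776 to 70971 counts per library, so that counting error was small beside the spread between cows. CFD was read by 6 to 62 counts per library in liver, at the 13.2th percentile of CPM over the same genes. For CFD, counting error alone gives a coefficient of variation of 15.4% to 26.7% at the mean count of a group, beside an observed 36.3% to 60.5%.

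CFHR4 differed between cows far more than between time-points. At LP the 8 Fert+ cows ranged from 669 to 3269 CPM with a median of 1175, and the 8 Fert- cows from 59.3 to 1527 with a median of 588. At EL the Fert+ cows ranged from 817 to 2169 with a median of 1494 CPM, and the Fert- cows from 43.1 to 2540 with a median of 1031. At ML the range was 544 to 2571 with a median of 1155 CPM in Fert+ and 27.8 to 1383 with a median of 1053 in Fert-. The groups overlapped at every time-point, and the lowest value was each time that of the Fert- cow 426. This cow held 59.3 CPM at LP, 43.1 at EL and 27.8 at ML, and no other liver library fell below 481. Its mean over the 3 biopsies was 43.4 CPM, and the next lowest cow (cow 419, Fert-) had 693, a ratio of 15.96. The highest cow was the Fert+ cow 430 with 2470 CPM, 3.56-fold over cow 419. Within a cow the highest of the 3 biopsies was 1.30 to 2.90 times the lowest, with a median of 1.79.

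**Figure D1:**
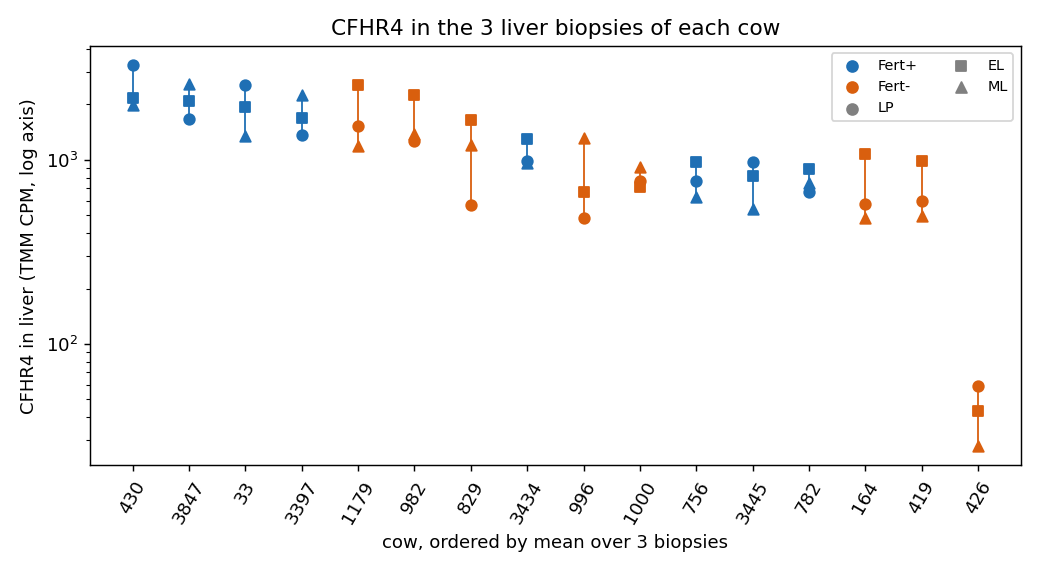
CFHR4 in liver (TMM CPM, log axis) in the 3 biopsies of each of 16 cows, ordered by the cow's mean. Symbols mark the time-point, colours the genotype and the vertical line spans the 3 biopsies. Cow 426 sits between 27.8 and 59.3 CPM in all 3 biopsies and the other 15 cows between 481 and 3269.

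The share of the variance in log2(CPM + 1) that lay between cows, after the mean of each time-point was removed, was 0.896 for CFHR4, with a median of 0.156 over all 13545 genes, and only 10 genes had a higher share. Without cow 426 the share was 0.66, and 235 genes had a higher one. The SD of the cow means was 1.34 on the log2 scale, against a median of 0.19 over all genes, and 0.66 without cow 426. For CFD the share between cows was 0.21, a value that 5306 genes exceeded, and its SD between cows was 0.29. The 1 added to CPM shrinks the differences of so low a gene, so that its SD cannot be set beside that of CFHR4. These shares describe the 16 cows and were not tested.

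Cows kept their order in CFHR4 from one biopsy to the next. Over the 16 cows the level at LP and at EL had a Pearson r of 0.91 and a Spearman rho of 0.76, LP and ML had r = 0.88 and rho = 0.68, and EL and ML had r = 0.92 and rho = 0.66. All 3 relations passed in permutation tests adjusted over the 16 relations computed, with adjusted p = 0.00096, 0.00229 and 0.00229 for r and 0.0134, 0.0322 and 0.0322 for rho. When the pair of cows farthest from the median at the earlier time-point was left out, which included cow 426 each time, r was 0.73, 0.57 and 0.67. Within the genotypes r ranged from 0.71 to 0.93 in Fert+ and from 0.91 to 0.96 in Fert-, where cow 426 was kept. On CPM without logs, r within the genotypes ranged from 0.55 to 0.87 in Fert+ and from 0.65 to 0.91 in Fert-. The Fert- values rest in part on cow 426, so that the genotypes cannot be ranked by them. For CFD the 3 relations had r of 0.17, 0.48 and -0.09, with permutation p of 0.642, 0.152 and 0.808 after adjustment, so that no order of cows was shown for CFD. The levels of CFHR4 and CFD in liver had r = 0.28 over the cows (permutation p = 0.465 adjusted).

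The study chose these genes on the genotype contrast at LP in liver, so that the values of this contrast describe the genes and are not independent evidence of their direction. CFHR4 was higher in Fert+ by a log2 fold change of 1.07 ± 0.47 (SE) at LP, 0.26 ± 0.49 at EL and 0.65 ± 0.52 at ML. At LP, all 8 Fert+ cows were above the median of Fert-. None of the 3 contrasts passed in edgeR's quasi-likelihood test with Benjamini-Hochberg adjustment over all genes, with adjusted p of 0.757, 0.834 and 0.636 and unadjusted p of 0.0376, 0.604 and 0.229. In that test 0 of 12872, 13047 and 13235 genes (0% each) passed at LP, EL and ML, and 6.54%, 11.7% and 12.4% had an unadjusted p under 0.05. An exact permutation of the cows gave a difference of 1.26 in mean log2(CPM + 1) at LP with p = 0.0277, and an adjusted p of 0.875 over all genes. The p-values measure the spread between cows of one herd.

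The size of the CFHR4 difference depended in part on which cows and libraries were in the fit. Without cow 426 the log2 fold change was 0.89 ± 0.37 at LP (unadjusted p = 0.0276 in edgeR's quasi-likelihood test), 0.07 ± 0.33 at EL and 0.48 ± 0.36 at ML. Without cow 430, the highest cow, it was 0.81 ± 0.47 at LP (unadjusted p = 0.101 in the same edgeR test). Without the 19-gene libraries the values for LP, EL and ML were 1.03, 0.03 and 0.38. With all libraries kept and a term for the 19-gene libraries in the fit, they were 1.04, 0.19 and 0.47. Those libraries include biopsies of the Fert+ cows 430, 3847 and 33, which had the highest means of all cows. They also include biopsies of the Fert+ cow 756 (mean 791 CPM) and of the Fert- cows 419 (693 CPM) and 829 (1141 CPM). Leaving the libraries out therefore also changes which cows are compared. On counts summed over the 3 biopsies of a cow the log2 fold change was 0.66 ± 0.48 (edgeR adjusted p = 0.515). It was 0.28 ± 0.71 without the cows that had a 19-gene library, which leaves out all of the cows just named, of both genotypes. The study used edgeR with one dispersion for all genes. Run in that way, edgeR's exact test gave CFHR4 an adjusted p of 5.43e-06 at LP, 0.884 at EL, 0.0376 at ML and 0.00888 on the sums per cow. That test passed 2.38%, 2.31%, 2.11% and 3.54% of all genes, and it assumes the same spread for every gene. On log2(CPM + 1), which shrinks the SD of low genes, CFHR4 had a larger SD between cows than all but 22 of 13545 genes. Without cow 426, 235 genes had a larger SD than CFHR4.

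**Figure D2:**
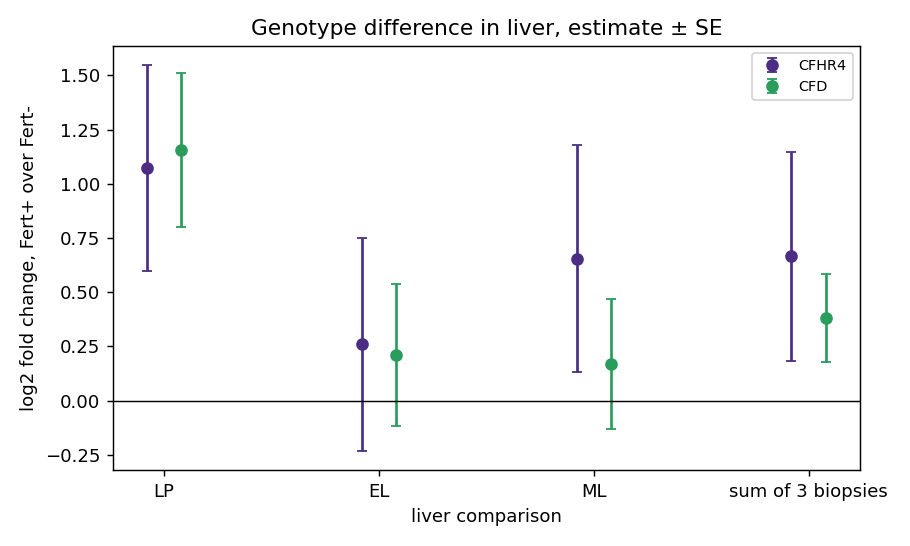
Log2 fold change of Fert+ over Fert- in liver by time-point and on counts summed over the 3 biopsies of a cow, as estimate ± SE of edgeR's quasi-likelihood fit with 8 cows per genotype. CFHR4 and CFD lie at 1.07 and 1.16 at LP and at 0.26 and 0.21 at EL.

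CFD was the other gene picked here from those that the study named at LP, and its libraries were read one by one because its counts are low. At LP the Fert+ cows had 14 to 51 counts and the Fert- cows 6 to 33, which is 0.734 to 2.95 CPM with a median of 1.52 in Fert+ and 0.261 to 1.43 with a median of 0.63 in Fert-. At EL the range was 0.653 to 2.47 CPM with a median of 1.23 in Fert+ and 0.421 to 2.16 with a median of 1.13 in Fert-. At ML it was 0.489 to 3.47 CPM in Fert+ and 0.783 to 2.41 in Fert-, and both medians were 1.79. The groups overlapped at each time-point, and at LP all 8 Fert+ cows were above the median of Fert-.

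The log2 fold change of CFD was 1.16 ± 0.35 (SE) at LP, 0.21 ± 0.33 at EL and 0.17 ± 0.30 at ML. Its adjusted p was 0.731, 0.796 and 0.851 in edgeR's quasi-likelihood test, and the unadjusted p at LP was 0.00425, a rank of 59 among 12872 genes. The exact permutation of cows gave p = 0.0073 at LP (adjusted p = 0.875). Over the 16 fits at LP that left out each cow in turn the log2 fold change stayed between 0.99 and 1.38, with unadjusted p of 0.00116 to 0.012 by edgeR. With one common dispersion the exact test of edgeR gave an adjusted p of 0.00042 at LP. Without the 19-gene libraries the values were 1.19, 0.52 and -0.05, so that the direction at ML turned. With all libraries kept and a term for the 19-gene libraries in the fit, they were 1.20, 0.21 and 0.11. On counts summed per cow the log2 fold change was 0.38 ± 0.20 (edgeR adjusted p = 0.372).

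**Figure D3:**
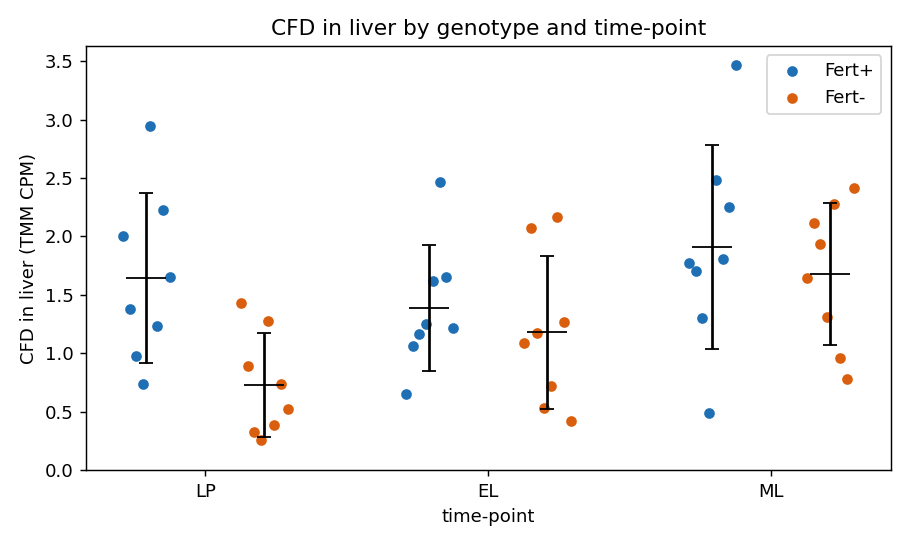
CFD in liver (TMM CPM) in each of 8 cows per genotype and time-point, with the mean (horizontal bar) and SD (error bar). At LP the Fert+ cows lie between 0.734 and 2.95 and the Fert- cows between 0.261 and 1.43 CPM, and at EL and ML the groups cover much the same range.

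The genotype differences were not shown to change with time-point. A genotype by time-point term fitted to the 48 liver libraries gave an adjusted p of 0.942 for CFHR4 and 0.782 for CFD in edgeR's quasi-likelihood test (unadjusted p = 0.556 and 0.0881), and 0 of 13815 genes (0%) passed. With the cow as a block the unadjusted p of CFD was 0.0499 and its adjusted p 0.647 in the same edgeR test.

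Between time-points the level of CFHR4 in liver did not pass in any contrast. Its log2 fold change was 0.36 ± 0.37 from LP to EL, -0.32 ± 0.36 from EL to ML and 0.04 ± 0.36 from LP to ML, with edgeR adjusted p of 0.626, 0.512 and 0.956. In the fit with the cow as a block, the SE fell to 0.16 and the EL to ML difference was -0.33 (edgeR adjusted p = 0.0934). In these contrasts 2.8%, 39% and 12.1% of 13545 genes passed. CFD was higher at ML than at LP by 0.66 ± 0.25, with an adjusted p of 0.0711 in the fit without the cow and 0.0482 with the cow as a block (0.68 ± 0.24), both by edgeR, where 15.5% of all genes passed with the block. The same difference was 0.66 ± 0.27 without the 19-gene libraries (edgeR adjusted p = 0.106). It was higher at ML than at EL by 0.49 ± 0.25 (edgeR adjusted p = 0.109), and EL and LP differed by 0.17 ± 0.25 (edgeR adjusted p = 0.748).

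CFD is made by adipocytes and macrophages as well as other cells, so that markers of those cells were set beside it. Of the 6 macrophage genes listed, 2 had a symbol here, the scavenger receptor MARCO and the secreted CD5L, and both were detected in all liver libraries. Their summed level in liver at LP was 143 to 467 CPM with a median of 389 in Fert+ and 145 to 351 with a median of 235 in Fert-. At EL it was 132 to 299 CPM with a median of 237 in Fert+ and 162 to 442 with a median of 236 in Fert-, and at ML 246 to 469 with a median of 388 and 223 to 493 with a median of 417. The group medians of CFD and of these markers were both higher in Fert+ at LP, near each other between genotypes at EL, and highest or near highest at ML. From LP to EL both medians fell in Fert+, CFD from 1.52 to 1.23 CPM and the markers from 389 to 237. In Fert- the CFD median rose from 0.63 to 1.13 CPM, whereas that of the markers was 235 and 236. The part of macrophages in the values of CFD was not tested. The 3 erythroid rows summed to 0.157 to 20.7 CPM with a median of 1.43 in Fert+ and 0.147 to 2.99 with a median of 0.459 in Fert- in liver at LP, and their medians were higher in Fert+ at EL and ML too. The neutrophil markers had medians of 4.25 and 4.55 CPM at LP in Fert+ and Fert- and reached 283 at EL, and the stroma markers had medians of 121.6 and 129.1 at LP. The part of these cells in CFHR4 and CFD was not tested. The 3 adipocyte markers summed to 0.187 to 5.71 CPM in liver, and ADIPOQ, the gene of adiponectin, had 0 counts in 42 of the 48 liver libraries.

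The genes whose liver level over the 16 cow means was most like CFHR4 were then listed, as a description over cows that share their libraries. Among the 13542 genes compared, the highest 5 had a Pearson r of 0.69 to 0.73, led by ENSBTAG00000015899 with r = 0.73 and a Spearman rho of 0.49, and r of 0.012 to 0.52 without cow 426. None of these 5 has a symbol here. The lowest r with CFHR4 was that of DYRK3, a protein kinase gene with a mean of 3.51 CPM, at -0.88 (rho = -0.74, and r = -0.64 without cow 426). It is named because it was the extreme, after its values were seen. For CFD the 5 most similar genes had r of 0.88 to 0.93 over the cow means, led by ENSBTAG00000025028 and ENSBTAG00000006816, and none has a symbol here. CFHR4 is one of a family of related genes whose read pairs can match more than 1 member, and where a pair that aligns equally well to several of them was placed is not given in the sources used here. The study counted pairs that fell on one annotated gene.

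The rest of complement was described from a list of 23 rows with a symbol here, and symbols were known mostly for genes that the study listed or that were abundant, and no gene of the lectin pathway was matched here. All 23 rows were tested in liver, and 0 passed between genotypes at LP, EL and ML, beside 0% of all genes. Their median log2 fold change of Fert+ over Fert- stood at 0.084 for LP, -0.36 for EL and 0.0017 for ML, beside -0.0012, 0.0011 and -0.019 over all genes. The summed hepatocyte markers were also lower in Fert+ at EL, with medians of 73721 CPM in Fert+ and 97695 in Fert-. These medians were 132885 and 132965 at LP and 130614 and 106802 at ML. The part of hepatocyte RNA in the values of the list was not tested. The smallest unadjusted p at LP were those of a second C1R row (ENSBTAG00000037743), of C1QB, a chain of the recognition protein of the classical pathway (0.32 ± 0.16), and of VSIG4, a complement receptor of macrophages (0.33 ± 0.18). That C1R row, a row for a classical pathway protease, was a low one with a median of 0.753 and a highest value of 36.4 CPM over the liver libraries, and its log2 fold change was -2.51 ± 1.06 at LP and -3.20 ± 1.08 at ML (edgeR adjusted p = 0.734 and 0.296), while DESeq2 gave 1.07 at LP. At EL the smallest were those of C8A, a subunit of the membrane attack complex (-0.48 ± 0.18), CPN2, a subunit of carboxypeptidase N (-0.39 ± 0.16), and C9, which forms the pore of that complex (-0.39 ± 0.17). At ML C1QA and C1QC, the other C1q chains, followed C1R with -0.37 ± 0.15 and -0.27 ± 0.14. None of these passed after adjustment.

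Between time-points some rows of the list passed in liver. From EL to ML 6 of 23 rows rose and 1 fell, beside 39% of all genes that passed. C1QB rose by 0.61 ± 0.12 on the log2 scale, C1QA by 0.60 ± 0.14 and C1QC by 0.53 ± 0.13, together with CLU, the gene of clusterin, an inhibitor of the terminal complex, by 0.44 ± 0.12 (edgeR adjusted p of 0.000208, 0.000804, 0.00115 and 0.00334). C3, the central protein of the cascade, and CD59, the membrane inhibitor of the terminal complex, rose by 0.43 ± 0.13 and 0.29 ± 0.12 (both named after their values were seen), and CPN2 fell by 0.45 on the log2 scale (SE 0.12). From LP to ML C1QB alone passed with 0.37 ± 0.12 (edgeR adjusted p = 0.0409, and 0.058 with no gene filter), 1 of 23 beside 12.1% of all genes. From LP to EL 0 of 23 passed beside 2.8%, with 5 at an unadjusted p under 0.05 beside 19.7% of all genes, and 3 passed with the cow as a block, beside 2.43% of all genes. The C1q chains are made by macrophages, and the summed macrophage markers had medians of 236 to 237 CPM at EL and 388 to 417 at ML. Their part in the change of C1q was not tested.

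Muscle held little of either gene. CFHR4 had 101 counts in all 48 muscle libraries together, with 22 libraries at 0, against 1177274 counts in liver. CFD had 106 counts in muscle, with 8 libraries at 0 and no library above 8 counts, against 1432 in liver. A count of 0 in muscle allows up to 3 counts, which is 0.136 to 0.196 CPM at the totals of these libraries, and covers counting error only. Liver was above muscle in all 16 cows for both genes, by 9.66 ± 1.31 (SD, n = 16) on the scale of log2(CPM + 1) for CFHR4 and 1.03 ± 0.25 for CFD, each with p = 3.05e-05 in an exact permutation test of 65536 sign flips, two-sided, the smallest p it can give. With CPM + 0.1 in place of CPM + 1 the differences were 12.4 and 2.69, since the added constant shrinks the difference of low genes.

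The muscle counts of CFHR4 were unevenly spread over time-points. They summed to 6 in the 16 libraries at LP, 19 at EL and 76 at ML, and 3 libraries at ML held 55 of the 76. These were those of cow 33 (Fert+, 20 counts, 1.23 CPM), cow 996 (Fert-, 18 counts, 1.03 CPM) and cow 1179 (Fert-, 17 counts, 1.10 CPM), and no other muscle library had more than 5. CFHR4 failed the filter on low counts in muscle, so that its fit exists only with no filter, where it was higher at ML than at LP by 3.43 ± 0.65 on the log2 scale and than at EL by 2.28 ± 0.55 (edgeR adjusted p of 0.000498 and 0.000562, beside 4.32% and 40.8% of all genes). Without the 3 libraries the values were 1.99 ± 0.60 over LP and 0.83 ± 0.51 over EL, and neither passed (edgeR adjusted p = 0.0548 and 0.214, beside 3.07% and 38.9% of all genes). The 3 libraries were picked by their CFHR4 counts and are all from ML. Leaving them out therefore lowers the ML level by construction, and the fit only describes the remaining libraries. The other 13 libraries at ML held 21 counts. Without the 19-gene libraries the values were 4.42 ± 0.72 and 2.72 ± 0.58, and both passed (edgeR adjusted p = 0.000159 and 0.000132, beside 3.99% and 38.8%). Both alternatives were chosen after the values were seen. Between genotypes CFHR4 in muscle, also with no filter, had log2 fold changes of -1.51 ± 0.97 at LP, -1.15 ± 0.79 at EL and -0.45 ± 0.85 at ML, and -0.075, -0.63 and -0.67 without the 19-gene libraries, and none of the 6 values passed (edgeR adjusted p of 0.651 to 0.986).

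The same 3 libraries had the highest sums of the 6 hepatocyte markers of all 48 muscle libraries. Their sums were 151 CPM in cow 33, 141 in cow 1179 and 79.2 in cow 996, whereas the median of muscle at LP and EL was 0.419 to 0.885 CPM by group and at ML 5.73 in Fert+ and 15.2 in Fert-. The ratio of CFHR4 to ALB, the gene of albumin, was compared between the muscle and the liver library of the same cow and time-point. In cow 33 CFHR4 had 1.11 counts per 100 of ALB in muscle (95% exact Poisson interval 0.679 to 1.72) and 1.29 in liver, in cow 1179 1.03 (0.599 to 1.65) and 1.09, and in cow 996 1.97 (1.17 to 3.12) and 1.86. The liver ratio lay within the muscle interval in 6 of 6 muscle libraries with 500 or more ALB counts, a limit set after the values were seen. Among them, those of cow 1000 and cow 3445 at ML and of cow 996 at EL held 1, 2 and 3 CFHR4 counts. Intervals from so few counts are wide, so that holding the liver ratio says little there. In the libraries with fewer ALB counts many intervals are wide, and the counting error of ALB, which they leave out, is larger. In 5 of those libraries, all with 1 to 10 ALB counts, the muscle interval lay above the liver ratio, and 3 of these were all the muscle biopsies of cow 419. That cow had 4, 5 and 4 CFHR4 counts beside 5, 4 and 10 of ALB at LP, EL and ML, which is 80, 125 and 40 per 100 of ALB against 0.624, 2.16 and 0.675 in liver, and its muscle libraries are 19-gene libraries. The intervals cover the counting error of CFHR4 only and not that of ALB, and whether liver RNA reached the muscle libraries was not tested.

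**Figure D4:**
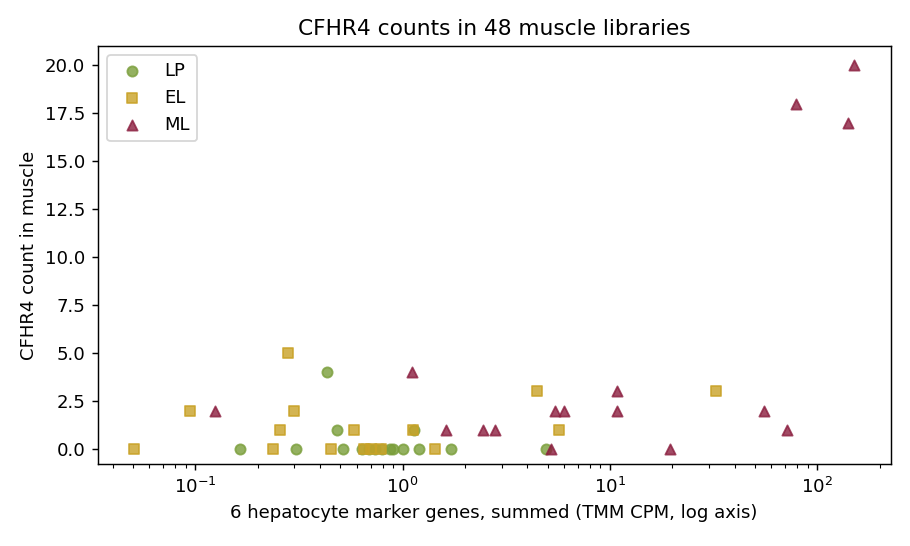
CFHR4 counts in the 48 muscle libraries against the summed level of 6 hepatocyte markers (TMM CPM, log axis), by time-point. The 3 libraries with 17 to 20 CFHR4 counts are ML libraries with 79.2 to 151 CPM of hepatocyte markers, and no other library has more than 5 counts.

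Muscle CFD was even over the time-points, with 42 counts at LP, 33 at EL and 31 at ML. At LP the counts were 0 to 7 with a median of 3 in Fert+ and 0 to 8 with a median of 0.5 in Fert-, at EL 1 to 4 and 0 to 4, and at ML 0 to 4 and 1 to 4. With no filter on low counts its log2 fold change of Fert+ over Fert- in muscle for LP, EL and ML was 0.79 ± 0.73, 0.44 ± 0.55 and -0.33 ± 0.49 (edgeR adjusted p of 0.783, 0.801 and 0.899), and the 95% interval at LP, from -0.64 to 2.21, held both 0 and the value of liver at LP. Without the 19-gene libraries, an alternative chosen after the values were seen, the values were 1.19 ± 0.77, 0.59 ± 0.62 and -0.20 ± 0.55 (edgeR adjusted p of 0.749, 0.75 and 0.964). The adipocyte markers summed to 1.09 to 73.2 CPM in muscle, with medians of 5.71 to 7.40 by group at LP and EL and of 14.6 and 18.6 at ML, and ADIPOQ was above 0 in all 48 muscle libraries.

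Over the cows CFD in liver and CFD in muscle had r = 0.54 and rho = 0.64, with permutation p of 0.11 and 0.0353 after adjustment over the 16 relations, and r = 0.32 without the pair of cows farthest from the median. The relation thus passed for ranks and not for r, and for ranks only on this scale, with adjusted permutation p of 0.0796 on log2(CPM + 0.1) and 0.124 on CPM. For CFHR4 the relation between the tissues had r = 0.28 (permutation p = 0.465 adjusted).

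In muscle 13 of the 23 complement rows at LP and EL and 14 at ML could be tested between genotypes, and 0 passed, beside 0%, 0.00831% and 0% of all genes. The smallest unadjusted p belonged to CFI, CLU and SERPING1 at LP, to CFB, C6 and C1S at EL and to CFI, C1QC and CD59 at ML. CFI, the gene of the protease that cleaves C3b, had -1.14 ± 0.34 at ML and CFB, the substrate of factor D, -1.04 ± 0.40 at EL (edgeR adjusted p = 0.49 and 0.326). These values were -1.35 and -0.75 without the 19-gene libraries (edgeR adjusted p = 0.428 and 0.446), and the median of the list at EL went from -0.53 to -0.088. With one common dispersion 1 row passed at EL and 2 at ML, beside 3.64% and 1.78% of all genes. From LP to ML C3, CFB and CFI rose by 1.53 ± 0.32, 1.63 ± 0.35 and 1.04 ± 0.26 (edgeR adjusted p of 0.0021, 0.00246 and 0.00992), 3 of 14 rows beside 6.14% of all genes. From LP to EL 2 of 14 rose (CFB by 1.46 ± 0.35 and C6, of the terminal complex, by 0.99 ± 0.26) and 3 fell (CD59, CLU and C8G), beside 54.5% of all genes. From EL to ML 4 of 14 rose (C8G, C3, CD59 and CFI) and 1 fell (C1QB, edgeR adjusted p = 0.0439, and 0.108 with the cow as a block), beside 59.8%. The hepatocyte markers given above were also highest at ML, and their part in the rise of C3, CFB and CFI was not tested.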

How the data were processed

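RNA was sequenced by the authors from liver and muscle biopsies of 16 cows at 3 time-points. CASAVA 1.8 made the reads, Trimmomatic trimmed them, STAR aligned them (UMD3.1 genome) and Samtools kept proper pairs. The authors deposited raw counts of read pairs per Ensembl gene from featureCounts for each of 96 libraries, with no normalization, and these counts are the values used. Another 96 columns of counts name no sample and stayed out. Groups, time-points and cow numbers come from the labels, and libraries with the same cow number are from the same animal. Residuals of the same cow correlated above 0.1 in 39 of 48 liver pairs and 42 of 48 muscle pairs. All 336 pairs within a group differed beyond sampling noise (lowest chi-square per gene 18.1).

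Genotypes were compared at each time-point of a tissue, on counts summed per cow and as an interaction with time-point, and time-points were compared with genotype as a term, all with edgeR 4.0.16 (R 4.3.3, limma 3.58.1; TMM, filterByExpr, robust quasi-likelihood test, two-sided, Benjamini-Hochberg adjustment over all genes, threshold 0.05). SE is the log2 fold change over the square root of F. CPM and log2(CPM + 1) were computed from the counts and TMM factors of a tissue, over both tissues for the tissue difference. Exact two-sided permutation tests used all 12870 arrangements of the cows, and correlations used 100000 resamples (Python 3.11.15, scipy 1.17.1). The 19-gene libraries were found from the counts, with 19 genes whose median was 2 counts or fewer in liver and in muscle but which reached 50 in some library of each, as libraries with 50 or more counts in most of these genes. The fits were tested on simulated data.

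The members, the complement and marker lists and the tests were chosen with earlier results of these data known. Named are the members, per tissue the 3 complement genes with the smallest unadjusted p of each genotype contrast and the 5 with the largest change among those passing in each time-point contrast, and the 5 genes most like a member over the cow means, of which those without a symbol are given in part. A gene that these rules would also name is not reported here and is left out of the lists. Symbols were taken from the study's supplementary files for 2159 identifiers, and list genes without one are missing. Positions and sequences are not given, as no annotation of that build was used here.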

Additional observations from a re-analysis of the deposited data

Results flagged for a closer look

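For CFHR4 and CFD in each group of 8 libraries, 24 sets of values in all, the highest and the lowest value were compared with the nearest other value by Dixon's ratio at its 95% level, on CPM and on log2(CPM + 1), the latter scale added after the CPM values had been seen, and chance passes about 1 set in 20 on one scale and more where either scale may pass. The Fert- cow 426 stood apart from the other 7 Fert- cows in CFHR4 in liver at all 3 time-points on the log2 scale, with 59.3 CPM at LP, 43.1 at EL and 27.8 at ML. On the CPM scale it did not, since the other cows spread widely. In muscle, CFHR4 stood apart at ML in Fert+ cow 33 with 1.23 CPM (20 counts), which is also the library with the most hepatocyte marker RNA. The other 3 values rest on 1 to 4 counts. They are CFHR4 in muscle at LP in Fert+ cow 3397 (0.0601 CPM, 1 count, all others at 0) and in Fert- cow 419 (0.192 CPM, 4 counts), and CFD in muscle at ML in Fert+ cow 3397 (0.283 CPM, 4 counts). No interaction of genotype and time-point passed for either gene.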

How the results depend on the processing

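Over 99 results and 690 alternative values, 659 kept their direction and their side of the threshold (counts within 1.5 times). With one common dispersion in edgeR's exact test CFHR4 passed in liver at LP (log2 fold change 1.07, adjusted p = 5.43e-06), at ML (0.65, adjusted p = 0.0376) and on cow sums (0.66, adjusted p = 0.00888), and CFD at LP (1.15, adjusted p = 0.00042). Over all genes that test passed 306 genes at LP, 301 at EL and 279 at ML in liver, where the quasi-likelihood test passed 0. With the replicate block (cow) CFD passed between LP and ML (0.68, adjusted p = 0.0482), and CFHR4 between LP and ML turned to -0.023. The pairing changed no other call of the 2 genes. Without the 19-gene libraries that CFHR4 value was -0.12, CFD between genotypes at ML was -0.051, and the genes passing from LP to EL in liver fell from 379 to 3. The cause was not tested.

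Leaving out each cow moved the log2 fold change of CFHR4 between 0.81 and 1.31 at LP, 0.07 and 0.50 at EL, 0.46 and 0.78 at ML and 0.48 and 0.85 on cow sums (an alternative chosen after seeing the data), and that of CFD between 0.99 and 1.38, 0.04 and 0.39, -0.0051 and 0.31, and 0.29 and 0.47. Of these fits, CFD at ML was below 0 only without the Fert+ cow 3847 (-0.0051). On CPM without logs the muscle correlation of CFHR4 between EL and ML was -0.0055 in place of 0.027. DESeq2 gave the second C1R row at LP 1.07. Of the complement rows, the common dispersion passed 1 each at LP, EL and ML in liver, and in muscle 1 at EL and 2 at ML, in place of 0, where the shares over all genes were 2.11% to 2.38% (liver) and 3.64% and 1.78% (muscle). The block passed 3 in place of 0 in liver from LP to EL, beside 2.43%. With no gene filter 0 in place of 1 passed in liver from LP to ML, beside 7.32% of all genes. In muscle, also with no gene filter, 10 in place of 5 passed from EL to ML and 9 in place of 3 from LP to ML. There 23 in place of 14 rows were tested, and 40.8% and 4.32% of all genes passed. In muscle without filter and without the 3 libraries high in CFHR4, its change fell from 3.43 to 1.99 over LP and from 2.28 to 0.83 over EL, and neither passed. Those libraries were picked by their CFHR4 counts and are all from ML, so that a fall follows from the choice. The 101 and 106 counts of CFHR4 and CFD limit the muscle values.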
